A study of Mus musculus with 30 samples.

Results

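Chemical reprogramming uses small molecules alone, without added genes, to turn mouse fibroblasts pluripotent. The genes described here are 150 that were high after 12 days of chemical treatment and lower at day 32 and in pluripotent cells of the same array set. They were selected on their measured day 12, day 32, CiPSC and ESC intensities, as the 150 genes with the largest ratio of the day 12 intensity to the highest of the day 32, CiPSC and embryonic stem cell (ESC) intensities in the array set that held the time course (set 5), among genes with a day 12 intensity of at least 500. Values under 16 were set to 16, and each gene was read from the probe with the highest mean in that set. In all, 19062 genes with a symbol had a probe there, and 6821 of them reached 500 at day 12. Since the rule used the day 12, day 32, CiPSC and ESC values of set 5, these values are given as a description.

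Set 5 held 1 sample each of untreated mouse embryonic fibroblasts (MEF3), of such cells after 12 days with the compounds labelled VC6TF, of cells after 20 and after 32 days with VC6TF+Z, of a chemically induced pluripotent line (CiPS line control, VC6TF+Z) and of untreated ESC of the line R1 (ESC5). In the study these letters stand for valproic acid, a GSK3 inhibitor, a TGF-beta receptor inhibitor, tranylcypromine, forskolin and, for Z, the methyltransferase inhibitor DZNep. Sets 1 to 4 held 24 further samples. Their 6 somatic samples, all untreated, were 3 of MEF and 1 each of neonatal fibroblasts (MNF), adult lung fibroblasts (MAF) and adipose-derived stem cells (ADSC). Their pluripotent samples were 10 CiPSC lines, made with combinations of small molecules that differed between lines per the labels, 2 OSKM iPSC lines made with the factors Oct4, Sox2, Klf4 and c-Myc, 2 SKM-FSK iPSC lines made with Sox2, Klf4, c-Myc and forskolin, and 4 untreated ESC samples (3 of R1 and 1 of TT2). Somatic cells grew in medium with 10% fetal bovine serum, and ESC, iPSC and CiPSC grew on feeder layers of mitomycin C-treated MEF, so their RNA can hold feeder RNA. In set 3, WT MEF, CiPS WT1 and CiPS WT2 are wild type by their titles, and the other titles name no genotype. The label of 1 line, ADSC CiPS2, names adult lung fibroblasts as its source. Each sample is 1 column of values, apparently the average of the 2 or 3 replicates that the design text names; whether replicates were separate cultures is not stated, and p-values then measure only the spread between these samples. Each set was normalized separately, so intensities were compared within a set.

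Fibroblasts keep up a connective tissue program: they secrete collagens and elastic fibres, carry receptors for growth factors such as platelet-derived growth factor, and are held in this state by mesenchymal transcription factors. Pluripotent cells shut this program off. During chemical reprogramming the cells pass through intermediates before pluripotency genes are switched on, so a gene that peaks early may belong to the starting cell or to the treated state.

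The cells labelled day 12 still carried most fibroblast markers. Of 15 fibroblast markers measured, 13 read at least 500 at day 12, against 10 in MEF3, 12 at days 20 and 32, 1 in the CiPSC control line and 5 in ESC5. Of 16 markers of pluripotent cells 1 did so at day 12, 9 in the CiPSC control line and 10 in ESC5. Some defining markers read low where their cell type should hold them: Pou5f1 stood at 140.5 and Sox2 at 34.2 in ESC5, and Col1a1 at 9.92 in MEF3. In bulk RNA, fewer cells of a type and less RNA per cell cannot be told apart. Of 17 macrophage genes 1 read at least 500 at day 12 and 7 did in MEF3, and their summed intensity ranged from 2187 at day 20 to 17349 in ESC5.

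The 150 genes had a median intensity of 1766 at day 12, 1069 at day 20, 350 at day 32, 93.6 in the CiPSC control line and 95.0 in ESC5. In MEF3 the median was 478. The decline came mostly after day 20. Day 20 was at least 2-fold below day 12 for 38 of the 150 genes, where 1.04% of the 6821 genes were, and day 32 was at least 2-fold below day 20 for 116, where 6.89% were. In 138 genes the order was day 12 above day 20 above day 32, and in 119 of these day 32 also stood above the CiPSC control line and ESC5. Day 32 was still at least 2-fold above both pluripotent samples for 87 genes, and it was the highest of day 32, the CiPSC control line and ESC5 for 133. These counts follow in part from the rule, and with 1 sample a day none was tested.

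The lower edge of the list fell among similar genes. Just inside were Mettl3, the methyltransferase of RNA adenosine (ratio 3.04), the collagen gene Col6a3 (3.03) and the homeobox gene Cux1 (3.03). Just outside were Col5a2 (3.00), the hyaluronan synthase Has2 (3.00) and the Wnt inhibitor Nkd1 (2.99). The ratio was at least 10 for 13 genes and under 4 for 83.

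Measured against the starting cells, most genes of the list were higher at day 12 than in MEF3. Day 12 stood at least 2-fold above MEF3 for 99 of the 150 genes (66.0%), where 36.5% of the genes with day 12 at 500 or more did. It stood at least 10-fold above for 57 (38.0%, against 9.02%). Day 12 was within 2-fold of MEF3 for 39 genes and at least 2-fold below it for 12, where 17.7% of the 6821 genes were below. The 99 genes went from a median of 174 in MEF3 to 1906 at day 12 and 73.3 in the CiPSC control line, while the 12 went from 3890 to 1509 and 138. The day 12 value was part of the rule, so these shares describe the list and carry no test.

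**Figure D1:**
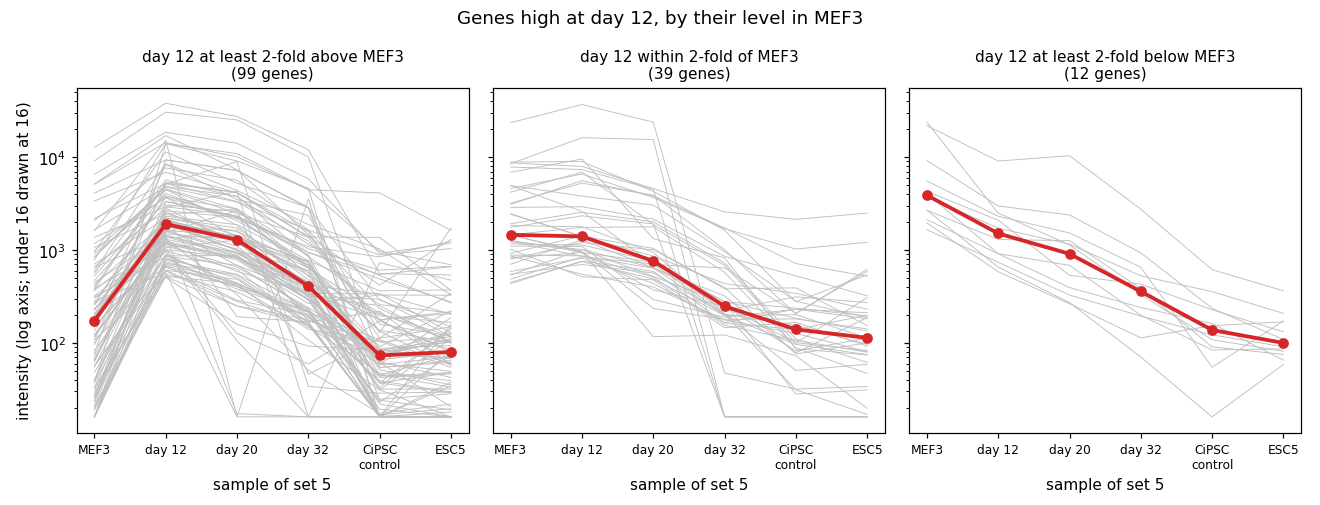
Intensity (log axis) of the 150 genes in the 6 samples of set 5, in 3 panels by the level at day 12 relative to MEF3; grey lines are genes and the red line is their median. The 99 genes of the left panel start at a median of 174 in MEF3 and reach 1906 at day 12, the 39 of the middle panel start at 1458, and the 12 of the right panel start at 3890 and have a falling median throughout.

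The largest gain over MEF3 was that of Cux1, which read 37.1 in MEF3 and 13994 at day 12, then 9085, 4624, 14.6 and 158 at days 20 and 32, in the CiPSC control and in ESC5. Others with a gain over 70-fold were Adssl1, an adenylosuccinate synthase of muscle (23.5 in MEF3 and 3058 at day 12), the secreted factor Ism1 (78.3 and 9343), the kinase gene Mok (23 and 2588), the lectin gene Clec2m (20.6 and 1870), the small GTPase gene Rab39 (27.1 and 2112) and the Hedgehog receptor Ptch1 (15.6 and 1170). Gsdmcl2 (9.92 and 2876) and the olfactory receptor gene Olfr432 (6.58 and 1735) read under 16 in MEF3, so their gains of at least 180- and 108-fold are bounds. Ptch1 also read under 16 in MEF3, so its gain is a bound too. MEF3 itself read low for many of these genes beside the other embryonic fibroblasts. Taking each level relative to the median of its own sample over the genes measured in all 5 sets, MEF3 stood at least 4-fold below the mean of those of MEF1, WT MEF and MEF2 that measured the gene for 31 of the 91 such genes measured, where it did for 18.5% of all genes with day 12 at 500 or more. Their median difference was -1.08 on the log2 scale, against -0.22. Among them were Col3a1 (-5.45), Ism1 (-5.33), the interleukin-1 receptor Il1r1 (-5.24) and Antxr1 (-4.40). The part of this difference in the gains was not tested.

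The 12 genes that were already lower at day 12 were led by components of elastic fibres. Eln, which encodes elastin, read 23829 in MEF3, then 2497, 1137 and 332 at days 12, 20 and 32, with 108 in the CiPSC control and 81.3 in ESC5. Fbn2, a fibrillin, read 4038 in MEF3 and 915 at day 12, and Ltbp2, which sits on elastic microfibrils, 21832 and 9085. The others of the 8 smallest day 12 to MEF3 ratios were Lrrc17 (2683 and 655), the interleukin-31 receptor gene Il31ra (1954 and 584), Tgfb1i1, a focal adhesion protein also known as Hic-5 (9230 and 2981), the stromal antigen Cd248 (5526 and 2312) and the respiratory chain subunit Ndufa8 (2123 and 912).

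The list was compared with sets 1 to 4, none of whose samples the rule used. A gene was called when limma gave an adjusted p under 0.05, over all genes tested, and a difference of at least 2-fold. Of the 150 genes, 142 were measured in at least 1 of these sets. Of the 129 that could be tested between ESC and somatic samples, 54 were called lower in ESC (41.9%, where 16% of the 14361 genes tested were) and 10 higher (7.75%, where 16.1% were). Between CiPSC and somatic samples 43 of 109 were called lower (39.4%, against 15.5%) and 10 higher (9.17%, against 16.4%). For the OSKM iPSC lines 26 of 84 were lower (31.0%, against 12.6%) and 11 higher (13.1%, against 15.1%), and for the SKM-FSK iPSC lines 51 of 129 were lower (39.5%, against 12.3%) and 5 higher (3.88%, against 11.9%). The median log2 differences were -0.85, -0.56, -0.25 and -0.88 in that order, beside 0.06, 0.00, 0.10 and 0.10 over all genes. The 4 comparisons share their somatic samples. The shares over all genes include genes under the day 12 minimum of the rule, which each of the 150 genes had to reach. Shares over only the genes that reached this minimum were not computed. How much of the contrast with all genes follows from the minimum was therefore not tested. The same limit holds below, where the 150 genes are split by level or role and set beside all genes tested. All 54 genes lower in ESC and all 43 lower in CiPSC had that direction in every set that held both groups. The calls came from a fit to these same sets, so this follows in large part from the call. The share over all called genes was not computed. For SKM-FSK the count was 30 of 114 without the first line (26.3%, against 6.98% of all genes), 29 of 114 without the second (25.4%, against 6.70%) and 32 of 114 without set 3 (28.1%, against 10.1%). Without set 3, 28 of 84 genes were lower in CiPSC (33.3%, against 14.7%).

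The calls were also counted by the level at day 12 relative to MEF3. Of the 12 genes lower at day 12 than in MEF3, 8 were lower in ESC and 0 higher. Of the 38 tested that lay within 2-fold, 17 were lower and 2 higher. Of the 79 tested that were higher at day 12 than in MEF3, 29 were lower and 8 higher. Over all genes tested, 16% were lower in ESC and 16.1% higher. The difference between the shares of these groups of genes was not tested.

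By known role, assigned to each gene after its values had been seen, 21 of the 150 genes make or modify extracellular matrix, 15 are transcription factors or cofactors, 20 are ligands, receptors or signalling inhibitors, 28 act in neurons, at synapses or as ion channels, 8 belong to muscle, 23 serve general cell functions and 35 had another or no clear role. Of the 29 role lists drawn up for comparison, the collagens held the most members, 5 of 24 measured, followed by 4 of 31 genes of matrix assembly and 3 each of 22 skeletal muscle genes, 31 stromal surface genes and 34 mesenchymal transcription factors, where the 150 genes are 0.787% of all genes. Only the 6821 genes with day 12 at 500 or more could be members, so the share of all genes is too low a baseline. That level was reached by 17 collagens, 18 genes of matrix assembly, 9 skeletal muscle genes, 24 stromal surface genes and 18 mesenchymal transcription factors. There were 12 lists with no member, among them Hox genes (0 of 34, 11 at 500 or more), matricellular genes (0 of 17, 10), epithelial genes (0 of 25, 8) and cAMP targets (0 of 25, 11). In lists this short 0 members is near the share over all genes.

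**Figure D2:**
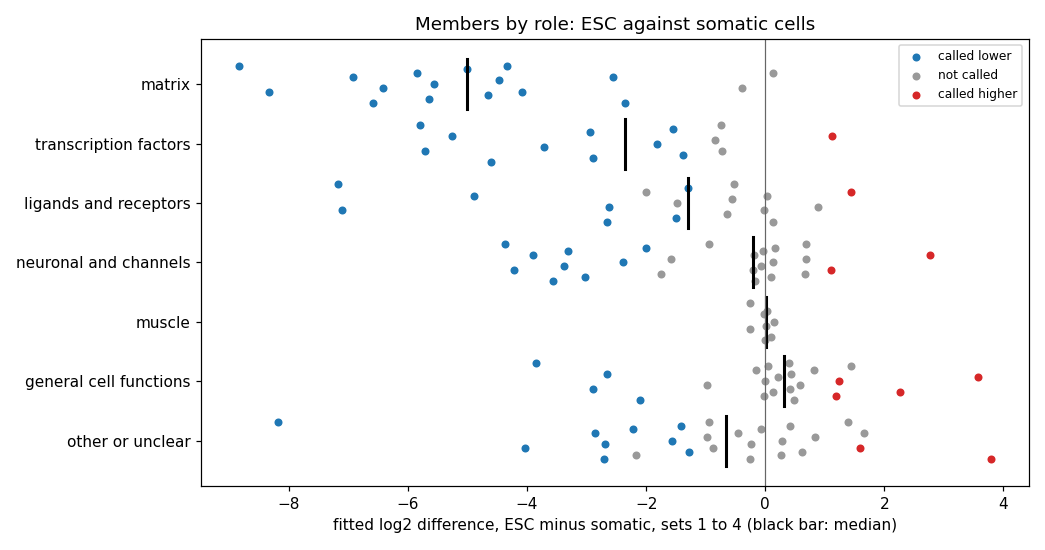
Fitted log2 difference of ESC minus somatic samples in sets 1 to 4 (horizontal axis) for the 129 genes tested, in rows by role; blue, grey and red points are genes called lower, not called and called higher, and black bars are medians. Matrix genes centre at -5.01 and transcription factors at -2.35, whereas muscle genes centre at 0.00 with none called.

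Matrix genes had the lowest median of the 7 role groups in ESC. Of 17 tested between ESC and somatic samples 15 were lower and 0 higher, with a median of -5.01. Between CiPSC and somatic samples 12 of 14 were lower, with a median of -4.23. Over all genes tested 16% were lower in ESC and 15.5% in CiPSC. Serpinf1 (chromosome 11, 75410029 to 75422623), which encodes the secreted antiangiogenic factor PEDF, read 12737 in MEF3, 38041 at day 12, 27425 at day 20, 12015 at day 32, 557 in the CiPSC control line and 540 in ESC5. In sets 1 to 4 its intensity ranged from 22522 to 63948 in the 6 somatic samples (median 45026), from 224 to 3554 in the 10 CiPSC samples (median 809) and from 179 to 538 in the 4 ESC samples. The somatic samples stood above all CiPSC and ESC samples, which overlapped with each other, and the difference from somatic samples was -5.30 ± 0.53 in CiPSC (SE; limma adjusted p = 1.11e-07) and -6.92 ± 0.65 in ESC (8.33e-08).

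Cd248, an antigen of pericytes and stromal fibroblasts, ranged from 1938 to 15318 in somatic samples (median 9649), from 42.2 to 892 in CiPSC (median 122) and from 51.0 to 150 in ESC, and fell by 5.54 ± 0.50 in CiPSC (SE; limma adjusted p = 2.56e-08). Col6a3, a chain of the microfibrillar collagen VI, read 9127, 30512, 25170, 10054, 73.3 and 79.5 along set 5, and differed by -5.50 ± 0.75 between CiPSC and somatic samples (limma adjusted p = 3.19e-05; 6 and 5 samples). Ltbp2 and Eln differed by -4.68 ± 0.63 and -4.65 ± 0.81, and Mrgprf, an orphan receptor outside the matrix group, by -4.60 ± 0.33. Eln overlapped between groups, because its somatic samples ran from 158 in ADSC to 31623 in MEF1 and CiPSC samples from 63.1 to 294.

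Col1a2, a chain of collagen I (chromosome 6, 4505618 to 4541543), read 3196, 5255, 3900, 1007, 206 and 620 along set 5 and was measured in sets 3 and 4. It read 23851 in WT MEF and 51093 in MEF2, 160 and 36.3 in the ESC of those sets, 26.1 and 28.2 in the SKM-FSK iPSC lines, and 3093 and 2799 in CiPS WT1 and CiPS WT2. The CiPS WT lines thus lay above the ESC and below the fibroblasts of their set. In the same set the median of 11 fibroblast markers was 1197 in CiPS WT1, 1437 in CiPS WT2, 160 in ESC3 and 19764 in WT MEF; the part of carried-over or feeder fibroblasts was not tested. The other collagens of the list ran alike. Col6a2 read 3381, 6869, 4138, 1369, 159 and 118 along set 5 and differed by -4.21 ± 0.50 in CiPSC, and Col14a1, a collagen that associates with fibrils, read 703, 1290, 646, 198, 96.5 and 74.8 and differed by -4.25 ± 0.33. Ctsk, the collagen-degrading cathepsin K, read 149, 1109, 655, 240.3, 77.6 and 104 and differed by -4.49 ± 0.38. Exceptions among the matrix genes were Amelx, which encodes the enamel protein amelogenin (0.13 between ESC and somatic samples), and the cartilage proteoglycan Epyc (-0.39), neither of which was called.

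The wider collagen and matrix lists moved the same way. Of 22 collagens tested 20 were lower in ESC and 0 higher (median -3.92), and of 30 genes of matrix assembly 25 were lower and 1 higher (median -3.72), where 16% of all genes were lower. In set 5 the median ratio over the listed genes with 500 or more was 1.78 for collagens and 1.70 for matrix assembly, so most listed matrix genes did not reach the ratio of 3.03 at the lower edge of the 150.

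Promoter sequence was set beside these values. The RefSeq table of assembly GRCm38.p6 held promoters of 109 of the 150 genes (134 windows), and the 250 bases before each start were searched on both strands for 9 motifs. The windows of the 150 genes had a median of 11 CpG dinucleotides, against 16 for genes with day 12 at 500 or more and 6 for all 32851 windows. The NF-Y box (CCAAT) was present in 25.4% of the windows, against 34.8% and 33.8%, the E-box CAGCTG in 15.7%, against 11.7% and 13%, and the AP-1 site TGANTCA in 6.72%, against 4.37% and 6.75%. The TEAD site GGAATG was in 11.9%, 10.7% and 12.6%, the TATA box TATAAA in 8.21%, 6.57% and 12.4%, the TCF/LEF site ATCAAAG in 2.99%, 2.53% and 3.21%, the cAMP response element TGACGTCA in 1.49%, 2.49% and 1.55%, and the core of the interferon-stimulated response element in 1.49%, 2.35% and 2.98%. The p65 NF-kappaB site was in none, against 0.392% and 0.356%. The promoters of 3 genes called lower in ESC that carry the NF-Y box are printed, with the box in capitals, to set a collagen, a transcription factor and a secreted protein beside each other: Col1a2 (chr6:4505368-4505617, plus strand), Zic1 (chr9:91365769-91366018, minus strand) and Serpinf1 (chr11:75422624-75422873, minus strand).
Col1a2: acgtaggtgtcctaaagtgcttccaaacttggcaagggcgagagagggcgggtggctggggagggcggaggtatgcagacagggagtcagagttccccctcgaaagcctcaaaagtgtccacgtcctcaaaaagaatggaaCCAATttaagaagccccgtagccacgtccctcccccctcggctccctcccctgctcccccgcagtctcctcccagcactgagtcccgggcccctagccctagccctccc
Zic1: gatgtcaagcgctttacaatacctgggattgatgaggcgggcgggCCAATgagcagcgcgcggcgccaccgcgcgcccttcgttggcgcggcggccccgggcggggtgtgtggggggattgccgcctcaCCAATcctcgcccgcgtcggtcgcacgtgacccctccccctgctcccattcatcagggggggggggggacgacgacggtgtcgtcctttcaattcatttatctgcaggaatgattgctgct
Serpinf1: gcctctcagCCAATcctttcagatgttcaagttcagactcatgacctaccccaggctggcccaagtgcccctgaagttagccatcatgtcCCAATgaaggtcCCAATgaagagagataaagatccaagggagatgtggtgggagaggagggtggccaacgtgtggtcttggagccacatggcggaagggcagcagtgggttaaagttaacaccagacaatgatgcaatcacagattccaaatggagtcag
The box began 109 bases before the start of Col1a2, and it was found at 2 places before Zic1 and 3 before Serpinf1. The Zic1 window held 27 CpG dinucleotides, that of Col1a2 11 and that of Serpinf1 2. A match is a description of the letters and says nothing about binding.

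Transcription factors followed the matrix genes. Of 14 tested 10 were lower in ESC than in somatic samples and 1 was higher (median -2.35), and 10 of 12 were lower in CiPSC. Over all genes tested, 16% were lower and 16.1% higher in ESC, and 15.5% were lower in CiPSC. Zic1, a zinc finger factor of neural and mesenchymal patterning, read 4198 in MEF3, 6906, 1882 and 687 at days 12, 20 and 32, 99.5 in the CiPSC control line and 308 in ESC5. In the other sets it lay between 3544 and 5534 in 3 MEF samples, between 97.8 and 253 in 6 CiPSC samples and between 86.0 and 201 in 3 ESC samples, with the MEF above all others and CiPSC and ESC overlapping, and differed by -4.55 ± 0.37 in CiPSC (SE; limma adjusted p = 6.75e-07). Irf7, the master regulator of type I interferon production, read 651, 1393, 844, 388, 31.2 and 111 along set 5 and differed by -5.23 ± 0.40 on the log2 scale in CiPSC (limma adjusted p = 3.52e-09).

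Among the 150 were 3 members of the list of mesenchymal transcription factors, Prrx2, Osr2 and Foxc2. Prrx2, a homeobox factor of limb and skin mesenchyme, read 375 in MEF3, 5211, 4149 and 1579 at days 12, 20 and 32, 112 in the CiPSC control line and 149 in ESC5. Its somatic intensities ran from 250.3 in ADSC to 9181 in MEF2 (median 2066) and its CiPSC intensities from 62.0 to 489 (median 174), so that ADSC overlapped with the pluripotent lines. The difference was -3.30 ± 0.52 in CiPSC (SE; limma adjusted p = 3.01e-05). Osr2, a factor of palate and joint mesenchyme, read 594, 8490, 4384, 1888, 1027 and 329 along set 5. Its difference in CiPSC was -1.68 ± 0.49 (limma adjusted p = 0.00735), and it no longer passed without set 3 (-1.19, 0.0727). Foxc2 (-1.94 ± 0.26) was lower too. Of the whole list of mesenchymal factors 15 of 22 tested were lower in CiPSC and 0 higher, where 15.5% and 16.4% of all genes were. The exception among the factors in ESC was Cux1, at 1.12 ± 0.31 (limma adjusted p = 0.0267), measured in 2 ESC and 2 somatic samples.

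Among ligands, receptors and signalling inhibitors, 7 of 17 tested were lower in ESC and 1 was higher, where 16% and 16.1% of all genes tested were. Day 12 exceeded MEF3 at least 2-fold for 15 of the 20, beside 66% of the 150 genes. Among all genes with day 12 at 500 or more it did for 36.5%. Pdgfra, the receptor for platelet-derived growth factor A, read 1610 in MEF3, 15180 at day 12, 3574 at day 32, 13.1 in the CiPSC control line and 84.5 in ESC5. Its day 20 value was 0.10, far below both neighbouring days. In sets 3 and 4 it read 2653 and 17736 in MEF and from 25.3 to 88.3 in all pluripotent samples, a difference of -7.18 ± 0.36 in ESC (SE; limma adjusted p = 6.03e-06). The chemokine Ccl12, which attracts monocytes, read 840, 4548, 2769, 522, 61.7 and 20.6 along set 5 and differed by -7.10 ± 0.32 in ESC. Tnfsf11, or RANKL, the ligand that drives osteoclast formation, read 961, 11401, 5251, 2863, 66.0 and 80.0, and among the 3 somatic samples of set 2 it was high in MAF alone (9888, with 115 in MNF and 287 in ADSC).

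The list held 2 Wnt feedback genes, Notum and Kremen1. Notum, a secreted enzyme that inactivates Wnt ligands and is itself a Wnt target, read 562 in MEF3, 5680, 3741 and 1150 at days 12, 20 and 32, 532 in the CiPSC control line and 269 in ESC5. In sets 1 to 4 it was low in somatic samples (63.1 to 283) and in CiPSC (59.6 to 579), and the groups overlapped, with a difference of 0.75 ± 0.32 (SE; limma adjusted p = 0.0583) that passed with MEF as the only somatic samples (1.25, 0.0256) and without set 2 (1.31, 0.0440). Kremen1, a receptor for the Wnt inhibitor Dkk1, read 2189, 5223, 3331, 1636, 886 and 1036 and differed by -0.18 ± 0.23 (limma adjusted p = 0.555). Fzd9, a Wnt receptor, was higher in CiPSC, by 1.04 ± 0.21, and in ESC. Of the 15 Wnt target and feedback genes tested in CiPSC, 7 were lower and 0 higher, where 15.5% and 16.4% of all genes were.

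Neuronal, synaptic and channel genes were the largest group with a named role. At day 12, 23 of 28 stood at least 2-fold above MEF3 and none at least 2-fold below, beside 66% and 8% of the 150 genes. Their median intensity was 207 in MEF3, 1605 at day 12, 1235 at day 20, 295 at day 32, 145 in the CiPSC control line and 117 in ESC5. Of 25 tested between ESC and somatic samples 9 were lower and 2 higher (median -0.21), where 16% and 16.1% of all genes tested were. Draxin, an axon guidance cue that antagonises Wnt signalling, read 203, 4500, 1851, 411, 205 and 117 along set 5. It was low in every sample of sets 1 to 4, from 96.5 to 256 in somatic samples, from 72.8 to 184 in CiPSC and from 99.8 to 305 in ESC (0.12 ± 0.18 in CiPSC; limma adjusted p = 0.609). The secreted guidance protein Reln (66.2 in MEF3, 1619 at day 12 and 172 at day 32), the neuronal pentraxin Nptx1 (135, 2218 and 480) and the glutamate transporter Slc17a6 (83.4, 865 and 212) were also higher at day 12 than in MEF3 and lower at day 32, and none was called in ESC or CiPSC.

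Some genes of this group were lower in pluripotent lines. Sema5a, a semaphorin, read 2098, 7662, 5640, 1641, 235 and 102 and fell by 3.02 ± 0.36 on the log2 scale in CiPSC (limma adjusted p = 9.49e-07). Ncam1, a cell adhesion molecule of nerve and stroma (-3.05 ± 0.48), and Nbea, a vesicle trafficking protein (-3.06 ± 0.24), fell as well. Amph, which acts in synaptic vesicle endocytosis, went the other way. It read 914, 3835, 2181, 1087, 844 and 1238 along set 5, from 80.9 to 258 in somatic samples and from 387 to 1342 in CiPSC, without overlap, and was higher by 2.79 ± 0.23 in CiPSC (SE; limma adjusted p = 1.01e-08) and by 2.77 ± 0.28 in ESC. Of the broader list of neural genes 5 of 19 tested were lower and 5 higher in CiPSC, where 15.5% and 16.4% of all genes were. The summed intensity of its 27 genes was 21176 in MEF3, 60980 at day 12, 75185 at day 20 and 91498 at day 32. Their median was 119, 477, 474 and 337 in the same samples, so the sum was highest at day 32 and the median at day 12.

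Of the 8 muscle genes, 6 were at least 2-fold lower at day 20 than at day 12, where 38 of the 150 genes were. Among all genes with day 12 at 500 or more the share was 1.04%. The median fall was 3.74-fold, against 1.56-fold over the 150 genes. Acta1, skeletal muscle actin, read 707 in MEF3, 2193 at day 12, 192 at day 20, 168 at day 32, 219 in the CiPSC control line and 58.2 in ESC5. Tnnc2, the calcium sensor of fast muscle, read 235, 1028, 126, 59.2, 172 and 83.2, and Tnni1, the inhibitory troponin of slow muscle, 4935, 2608, 696, 642, 209 and 590. In sets 1 to 4 none was called against somatic samples, of 8 tested in ESC and SKM-FSK iPSC, 7 in CiPSC and 6 in OSKM iPSC. Over all genes tested, 16% were lower and 16.1% higher in ESC. With so few genes the difference from these shares was not tested. Acta1, measured in sets 3 and 4, read 64.0 in WT MEF, 3436 and 3676 in the CiPS WT lines and 871 in ESC3. In set 4 it read 214.5 in MEF2, 120 and 153 in the SKM-FSK iPSC lines and 15.6 in ESC4. Tnni1 and Tnnc2 were high in a single somatic sample, MNF (2192 and 989), and read from 108 to 400 and from 56.0 to 155 in the other 5. Of the 22 skeletal muscle genes measured, 10 read at least 500 in MEF3, 9 at day 12, 4 at days 20 and 32 and 7 in the CiPSC control line and in ESC5. Their summed intensity was 28130 in MEF3, 17748 at day 12, 14165 at day 20, 27100 at day 32, 38630 in the CiPSC control line and 31627 in ESC5, and the part of muscle cells in the cultures was not tested.

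Of the 38 genes at least 2-fold lower at day 20, 6 were the muscle genes above. The lowest ratios of day 20 to day 12 belonged to Pdgfra, then to Nqo1, the quinone reductase of the antioxidant response (1415 at day 12 and 17.3 at day 20), Gnpda2 (570 and 0.10), Acta1, the signalling adaptor Dapp1 (966 and 105) and Rassf10 (954 and 117). The day 20 readings of Pdgfra and Gnpda2 were 0.10, and whether such readings near 0 are expression or a failed spot cannot be told apart here. Nqo1 had read 40.0 in MEF3 and stayed between 11.8 and 34.6 after day 20. At the other end Gm9871 (5117 and 8966), the polarity scaffold Patj (1553 and 2658), Gsdmcl2 (2876 and 4282), Fam78b (1057 and 1282), Ltbp2 (9085 and 10364) and Tmem179 (2426 and 2737) were higher at day 20 than at day 12.

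Among genes of general cell functions, 4 of 22 tested were lower and 4 higher in ESC than in somatic samples, near the 16% and 16.1% over all genes, with a median of 0.31. Psmc1 and Nme4 were low in the late samples of set 5 and not in sets 1 to 4. Psmc1, an ATPase subunit of the proteasome (chromosome 12, 100110202 to 100123364), read 5152, 17040, 7335, 1462, 174 and 80.0 along set 5, but from 2671 to 15093 in somatic samples, from 3946 to 11571 in CiPSC and from 3280 to 18239 in ESC of sets 1 to 4. Nme4, a mitochondrial nucleoside diphosphate kinase (chromosome 17, 26091734 to 26095523), read 7836 in MEF3 and 7354 at day 12, and from 0.10 to 5.25 at day 32 and in both pluripotent samples of set 5. Elsewhere it ranged from 5268 to 11927 in CiPSC and from 4888 to 6082 in ESC, and it was higher in CiPSC than in somatic samples by 1.27 ± 0.28 (SE; limma adjusted p = 0.00228).

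**Figure D3:**
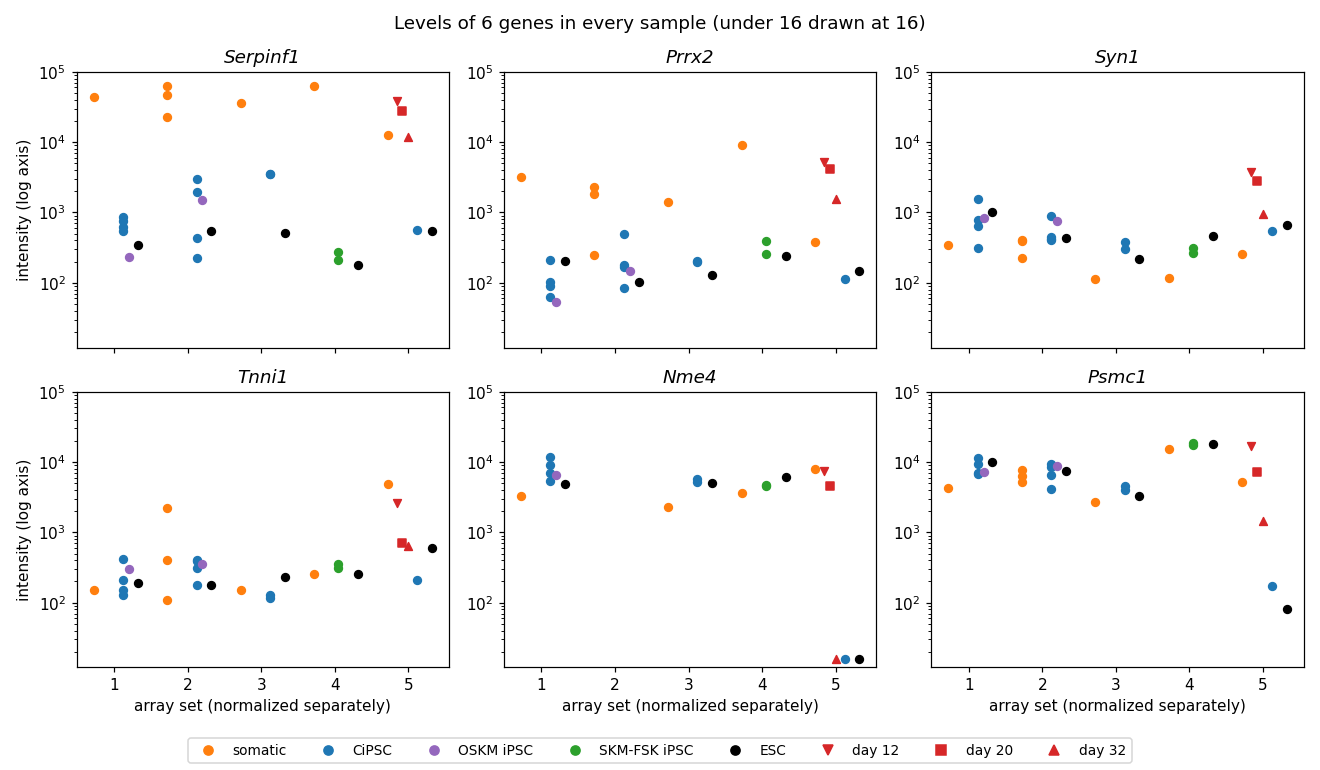
Intensity (log axis) of 6 of the genes in every sample that measured them, by array set (horizontal axis); orange, blue, violet, green and black points are somatic, CiPSC, OSKM iPSC, SKM-FSK iPSC and ESC samples, and red marks are days 12, 20 and 32. Serpinf1 is high in somatic samples and low in ESC of every set, Prrx2 likewise except in ADSC (250.3) and MEF3 (375), whereas Nme4 and Psmc1 are high in ESC of sets 1 to 4 and low in ESC of set 5.

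This difference between sets was measured over the whole list. Levels were again taken relative to the median of each sample over the genes measured in all sets. ESC5 lay at least 4-fold below the mean of those R1 ESC of sets 1, 3 and 4 that measured the gene for 31 of 142 genes (21.8%), where it did for 2.38% of the genes with day 12 at 500 or more, and the median difference was -0.37 against 0.11. The CiPSC control line lay at least 4-fold below the other CiPSC for 37 of 129 (28.7%, against 2.71%). Both samples entered the rule, which picks low readings in them. The largest differences in ESC5 were those of Nme4 (-8.40), Plvap, a protein of endothelial diaphragms (-7.85), the kinase anchor Akap12 (-7.23), Psmc1 (-6.74) and Gnpda2 (-5.64). Nme4, Plvap and Gnpda2 read under 16 in ESC5, so their values are bounds set by the floor and their order is not measured. Of the 12 genes with the largest ratios, Plvap, Nme4, Eid1 and Gnpda2 read under 1 in at least 1 sample of set 5, and 7 of the 150 did so.

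**Figure D4:**
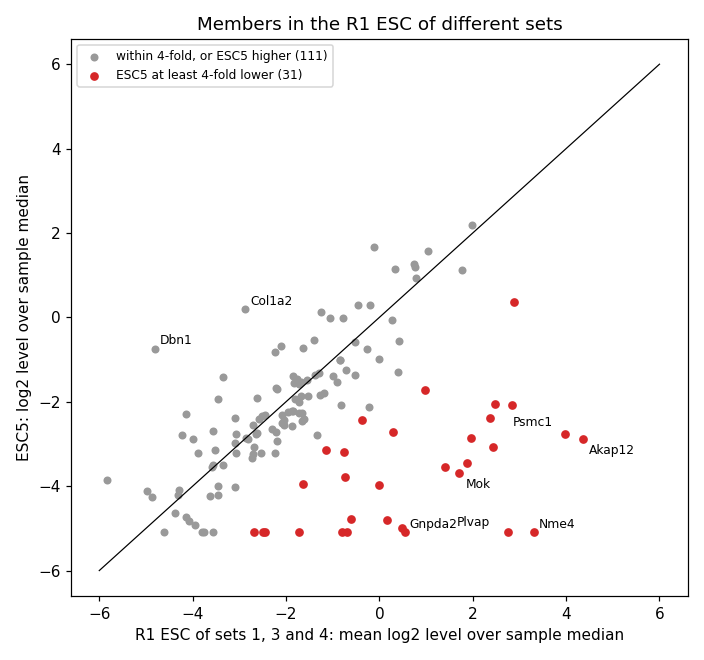
Level of the 142 genes measured elsewhere in ESC5 (vertical axis) against the mean of the R1 ESC of sets 1, 3 and 4 (horizontal axis), both as log2 over the sample's median; the line marks equal levels. The 31 genes in red lie at least 4-fold below the line, with Nme4 and Plvap at the floor in ESC5 and above the sample median in the other sets.

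The remaining genes of the 12 largest ratios were Rnf138rt1 (23552 in MEF3, 36886 at day 12 and 23829 at day 20, then 47.5, 31.8 and 33.9), Gm9871, Eid1, an inhibitor of differentiation (1756, 2335 and 1910, then 0.10 in the 3 later samples), Dapp1, Nqo1, the corneal proteoglycan Kera (26.5, 1325, 332, 50.6, 17.4 and 22), Akap12 and Draxin. Rnf138rt1 is named as a retrotransposed copy of Rnf138, and its signal cannot be told apart from that of its parent where the probe matches both. Outside set 5 Rnf138rt1 was measured in set 4 alone. It read 103 in MEF2, 106 in each SKM-FSK iPSC line and 83.2 in ESC4, so it was low in those fibroblasts too. Relative to the sample medians, MEF3 stood 8.34 above MEF2 on the log2 scale.

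Genes called higher in CiPSC than in somatic samples in sets 1 to 4 were 10. The largest differences were those of Ccdc92b (3.79 ± 0.30) and Mok (3.70 ± 0.36). Mok read from 49.4 to 238 in somatic samples and from 283 to 3884 in CiPSC without overlap, but 62.8 in the CiPSC control line and 42.5 in ESC5. Amph, the melanosomal gene Mlana (1.46 ± 0.26), Akap12 (1.32 ± 0.31), Nme4, the mitochondrial hydrolase Abhd11 (1.11 ± 0.21) and Hddc2 (1.11 ± 0.21) followed, with Fzd9 and Syn1, a synaptic vesicle protein (1.00 ± 0.31). Abhd11 dropped under 2-fold without MEF1 (0.91) or without set 1 (0.87), and Hddc2 without MNF (0.98).

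CiPSC and ESC did not differ detectably in these genes. None of 109 was called in either direction by limma, where 0.0152% of 13164 genes were called each way, and the smallest adjusted p was 0.298. At an unadjusted p under 0.05, 8 of the 109 passed, against 6.36% of all genes. The median difference, CiPSC minus ESC, was 0.06, and 0.93 over the 14 matrix genes. A p that misses the threshold does not show that the levels were equal.

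Somatic samples differed among themselves in set 2, where MNF, MAF and ADSC were normalized together. Over the 108 genes measured there the median was 661 in MNF, 385 in MAF and 364 in ADSC. MNF was the highest of the 3 for 56 genes (51.9%, against 41.6% of the 6321 genes with day 12 at 500 or more), MAF for 23 (21.3%, against 27.3%) and ADSC for 29 (26.9%, against 31.1%). MNF exceeded both others at least 4-fold for 14 genes (12.96%, against 1.63%), among them Eln, Col6a2, Col6a3, Fbn2, Osr2, Tnnc2 and Tnni1, whereas MAF did so for Tnfsf11 (against 1.2% of all these genes) and ADSC for Epyc (against 0.411%). With 1 sample of each type this was not tested.

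Some genes were read by more than 1 probe. Of the 150, 20 had another probe (24 in all), of which 16 read under 100 at day 12. Of the 8 others 7 had a ratio of at least 1.5, a laxer limit than the list's edge of 3.03. Only those of Zfp521 (3.62), Ptprv (3.59) and Trim9 (3.82) exceeded that edge. The rest ran from 1.31 (Cbfa2t3) to 2.74 (Amelx). The share over all probes was not computed. Both other probes of Cbfa2t3 were lower at day 12 than in MEF3 (169 and 134, 310 and 129). Its listed probe rose from 37.7 to 882. The other probes of Cited2 and Gprc5b read 44.8 and 94.9 at day 12 and were highest at day 32 (457) and in ESC5 (762).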

How the data were processed

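Total RNA was labelled with Cy5 and read on 1-colour Mouse OneArray v2 arrays, per the labels. The authors deposited intensities on a linear scale, normalized separately in 5 sets of samples per the series' design text. How background was corrected and probes were filtered is not stated in the labels. Intensities under 16 were set to 16 and log2 was taken. For each gene with a symbol the probe with the highest mean over set 5 was kept. The 24 samples of sets 1 to 4 were fitted with limma 3.58.1 (R 4.3.3), with group and set as terms and Benjamini-Hochberg adjustment over all genes tested; a call needed an adjusted p under 0.05 and a 2-fold difference. A gene needed 2 sets holding both groups (1 for SKM-FSK) and 3 residual degrees of freedom. Set 5, with 1 sample a group, got no test. The number of arrays limits the precision. In simulated data for CiPSC against somatic samples (13164 genes), 80 of 100 genes changed by 1.5 on the log2 scale were recovered. Of those changed by 3, 100 of 100 were recovered, and each size of change gave 3 false calls. Recovery in the measured sets, which were normalized separately and had intensities under 16 set to 16, was not tested.

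The members and gene lists were chosen with earlier results of these data known, and roles were assigned after the members' values had been seen. Named genes were the extremes of the ratio, of day 12 over MEF3, of day 20 over day 12 and of the CiPSC difference, those at the list's edge, and list members. Others, such as Sema5a, Nbea, Reln, Nptx1, Slc17a6, Ccl12, Amelx, Epyc and Fzd9, were chosen after their values were seen. Alternatives changed the floor, pseudocount, normalization, filter, probe, set term, variance prior, call rule, samples and sets.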

Additional observations from a re-analysis of the deposited data

Results flagged for a closer look

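Patj, a polarity scaffold gene, read 1813.5 in MNF CiPS1, whereas the other 3 CiPSC lines of set 2 read from 70.9 to 115.2. On the log2 scale the gap to the nearest line was 0.850 of the range over the 4 lines. It was the 1 sample set apart in this way among 78 gene and group pairs examined, and chance sets one apart in about 1 in 20 pairs.

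Acta1, skeletal muscle actin, differed in direction between sets. The mean of CiPSC and ESC minus the somatic sample was 5.12 on the log2 scale in set 3. It was -3.74 in set 4, where the group was 1 ESC sample. That sample read 15.6, under the floor of 16, so the value is a bound. The SKM-FSK iPSC lines of set 4 were not in the group and read 120 and 153, beside 214.5 in MEF2. This difference between sets was not tested.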

How the results depend on the processing

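The share of the list that was at least 2-fold lower at day 20 than at day 12 was 25.3%, and it was 15.3% with day 12 at 1000 or more and 34.0% for the 100 genes with the largest ratios. The replicate block from the title numbers gave 31 of 114 genes lower in SKM-FSK iPSC (27.2%, against 6.65% of all genes) instead of 51 of 129, 44 in CiPSC, 45 in ESC, 28 in OSKM iPSC and 0 between CiPSC and ESC. Residuals of same-numbered samples correlated from -0.405 to 0.312 with group and set removed, and from -0.173 to 0.262 with only group removed. Removing these terms itself shifts such correlations, so they cannot settle the pairing. The numbers were not taken to pair the samples. Without set 3 the count was 32 in SKM-FSK iPSC and 28 in CiPSC. Without set 2 there was 1 call between CiPSC and ESC among 90 genes (1.11%, against 1.61% of all genes). Leaving out each sample in turn gave from 29 to 53 lower genes in SKM-FSK iPSC, 29 to 44 in CiPSC, 42 to 56 in ESC, 24 to 26 in OSKM iPSC and 0 to 0 between CiPSC and ESC. Shares over all genes are not given for these ranges, nor for the CiPSC, ESC and OSKM iPSC counts of the replicate block. These counts therefore show only how far the number of calls moved. The cause of the changes in count was not tested. No result reversed. The other 229 recomputed counts and shares were not classed as changed. For counts of called genes this meant staying within 1.5 times of the value. For the planned shares of the list in set 5 it meant staying within the binomial interval of the share, which treats genes as independent. Of the recomputed differences of named genes, 1702 kept their call and direction, 17 newly passed and 4 no longer passed. Chosen after seeing the data, leaving out the 7 genes that read under 1 in set 5 gave 42 of 106 lower in CiPSC and 50 of 123 in ESC. Over all genes tested, 15.5% were lower in CiPSC and 16% in ESC. Leaving out the 31 genes low in ESC5 gave 40 of 82 and 52 of 98, beside the same shares. That choice removes genes that read high in the ESC tested, so a larger share follows from its construction. The OSKM comparison could not be fitted with MEF as the only somatic samples, without MEF1, either OSKM line, set 1 or set 2, nor the SKM-FSK one without MEF2 or set 4.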
